A study of Homo sapiens with 6 samples.

Results

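Small nucleolar RNAs and the genes that carry them were followed in glioblastoma cells after knock-down of HOTAIRM1. The set held 54 small RNAs and 25 host genes, 79 of the 59074 genes listed. The small RNAs are those named SNORD, SNORA or SCARNA with a number, and they were chosen by their own level, since each needed a mean of at least 1 CPM (counts per 1000000 reads of a library) over the 6 libraries. That mean took 11 of 286 box C/D RNAs, 31 of 121 box H/ACA RNAs and 12 of 23 scaRNAs. The hosts were taken by name at any level and are the numbered SNHG genes with GAS5, ZFAS1 and DANCR. Of these, 23 also reached a mean of 1 CPM, and SNHG23 at 0.326 CPM and SNHG24 at 0.168 CPM did not. Just inside the limit lay SNORA80B with 1.06 CPM and SNORA77 with 1.26 CPM, and just outside it lay SNORA74 with 0.997 CPM and SNORA7B with 0.916 CPM.

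LN-229, T98G and U251 are established human glioblastoma lines. In each line, 1 culture received siPOOLs (complex pools of siRNAs) against HOTAIRM1 (siHOTAIRM1) and 1 received non-target siPOOLs (siControl), with lipid transfection in both, and RNA was sequenced 72 h later. No line had a repeat within a condition, so the 3 lines served as the replicates and no test within a line was possible. The p-values below rest on the spread between these lines, with each gene's own spread moderated towards that of genes of a similar level. The depth of the libraries, read from the value of 1 read and rounded, was 88300000 and 104000000 reads in LN-229 (siControl and siHOTAIRM1), 69100000 and 72700000 reads in T98G, and 52300000 and 101200000 reads in U251. A level of 3 reads corresponded to 0.0289 to 0.0574 CPM. At 10 CPM, the 95% Wilson interval of the shallowest library ran from 9.19 to 10.9 CPM, and all such intervals cover counting error only.

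The siControl library of U251 stood apart from the other 5 libraries. Its listed genes add up to 67.2% of the reads that CPM counts, against 55.9% in the siHOTAIRM1 library of U251 and 42.9% to 50.2% in the libraries of the other lines. The main results that rest on U251 are therefore also given without it. HOTAIRM1, the targeted lncRNA, was at 1.99 CPM in siControl and 0.952 CPM in siHOTAIRM1 cells of LN-229, at 3.49 and 2.15 CPM in T98G, and at 1.27 and 0.623 CPM in U251. It was lower in 3 of 3 lines (log2 fold change -0.54, SE 0.12, adjusted p = 0.0146 in limma with the line as block), the direction that the labels give. The call was kept without U251 (adjusted p = 0.00988 in limma) but not without LN-229 (0.0711), without T98G (0.435) or with each library centred on its median (0.170), and the adjusted p ran from 0.00302 to 1.0 over all alternatives. Where the call was lost, the log2 fold change was -0.50 without LN-229, -0.55 without T98G and -0.46 with centring. Known markers also fitted the labels in part. VIM was at 253.7 CPM or more in every library and CD44 at 304 CPM or more. MGMT, known to be expressed in T98G, was at 7.44 and 5.86 CPM there and under 0.02 CPM in the other lines. NES was at 0.956 and 0.866 CPM in T98G, and SOX2 was near 0 there. GFAP was at 42.5 and 20.7 CPM in U251 (siControl and siHOTAIRM1) and at 0.317 CPM or less in the other lines. OLIG2 was at 1.69 CPM or less in every library. Of the 5 markers of other cell types, MBP was the most abundant, with a mean of 1.91 CPM that came mostly from U251. RBFOX3, a marker of neurons, was below 3 reads in every library. Of the 6 glioma markers tested for the knock-down, 0 were called in limma and 1 (GFAP) had an unadjusted p below 0.05. The shares over all tested genes were 2.0% and 18.3%. Of the other markers 1 was tested and 0 were called.

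Small nucleolar RNAs guide chemical changes of other RNAs in the nucleolus. Box C/D RNAs direct 2′-O-methylation with the methyltransferase fibrillarin (FBL), and box H/ACA RNAs direct pseudouridylation with dyskerin (DKC1). A few, such as U3, are needed instead for cutting the ribosomal RNA precursor. The scaRNAs act in Cajal bodies, mainly on spliceosomal RNAs. Most human small nucleolar RNAs lie in introns, and they are trimmed from the excised intron after splicing of the host. The SNHG genes, GAS5, ZFAS1 and DANCR are such hosts whose spliced product is not translated into a known protein, and several of these spliced RNAs are known targets of nonsense-mediated decay. U3 and a few others have promoters of their own.

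Sequences of abundant members, and of SNORD1B, which is not a member but is held by the called host SNHG16, are given first, from the GENCODE transcripts of hg38, 5′ to 3′. In box C/D RNAs the capitals mark the letters TGATGA (the C box, which in U3 lies far from the 5′ end) and the last CTGA (the D box). In box H/ACA RNAs they mark the ACA that lies 3 bases before the 3′ end. SNORD3D (chr17:19112419-19112636, minus strand) is a short annotated copy of U3, SNORD17 (chr20:17962710-17962946, minus strand) lies in an intron of SNX5, SNORA73A (chr1:28507366-28507571, plus strand) and SNORA73B (chr1:28508559-28508762, plus strand) lie in introns of SNHG3, and SNORD1B (chr17:76561109-76561192, plus strand) lies in an intron of SNHG16.
SNORD3D: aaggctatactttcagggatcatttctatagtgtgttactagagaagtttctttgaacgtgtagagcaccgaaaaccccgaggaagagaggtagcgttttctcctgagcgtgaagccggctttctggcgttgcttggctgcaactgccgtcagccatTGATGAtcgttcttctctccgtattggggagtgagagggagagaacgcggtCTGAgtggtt
SNORD17: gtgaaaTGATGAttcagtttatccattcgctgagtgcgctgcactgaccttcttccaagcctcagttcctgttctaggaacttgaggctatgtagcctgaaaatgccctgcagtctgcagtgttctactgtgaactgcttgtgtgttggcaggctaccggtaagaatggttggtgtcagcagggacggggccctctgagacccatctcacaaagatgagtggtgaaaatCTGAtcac
SNORA73A: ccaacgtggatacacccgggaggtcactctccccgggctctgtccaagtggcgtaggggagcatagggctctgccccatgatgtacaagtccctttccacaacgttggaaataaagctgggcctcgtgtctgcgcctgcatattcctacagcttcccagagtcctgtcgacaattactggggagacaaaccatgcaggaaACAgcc
SNORA73B: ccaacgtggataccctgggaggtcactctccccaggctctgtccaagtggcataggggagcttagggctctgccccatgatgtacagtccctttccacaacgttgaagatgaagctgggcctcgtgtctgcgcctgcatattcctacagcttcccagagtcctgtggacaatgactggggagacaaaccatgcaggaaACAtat
SNORD1B: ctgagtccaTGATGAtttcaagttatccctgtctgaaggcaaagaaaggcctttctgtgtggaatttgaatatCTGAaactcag

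The boxes separated the classes as their names say. Of the 259 box C/D RNAs with a sequence at 1 annotated place, 187 (72.2%) held TGATGA in the first 30 bases and 241 (93.1%) held CTGA in the last 20 bases, compared with 1 and 10 of 103 box H/ACA RNAs. ACA lay 3 bases before the 3′ end in 79 (76.7%) of the 103 box H/ACA RNAs and in 4 of the 259 box C/D RNAs. Of the 11 box C/D members, 4 held both boxes in these windows. Only the strand of each RNA was searched, and the search asked for these exact letters.

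Median length differed between members and other small RNAs among box C/D RNAs and scaRNAs, and little among box H/ACA RNAs. The box C/D members were 104 to 791 bases long with a median of 218 bases, whereas the 248 box C/D RNAs below the limit that have an annotated length had a median of 81.5 bases. None of the 235 small RNAs of 100 bases or fewer was a member, and their median level equalled the 0.0001 CPM that the authors had added to each value. Among RNAs of 101 to 150 bases, 30 of 123 (24.4%) were members, and among longer ones 21 of 29 (72.4%). For scaRNAs the medians were 272.5 bases for members and 135 bases for the others, and for box H/ACA RNAs 136 and 133 bases. Among box H/ACA RNAs, 22 of 95 (23.2%) at 101 to 150 bases and 6 of 11 (54.5%) longer ones were members. The libraries were made with a kit that selects polyadenylated RNA and fragments it, and how far short RNAs pass through it was not tested.

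**Figure D1:**
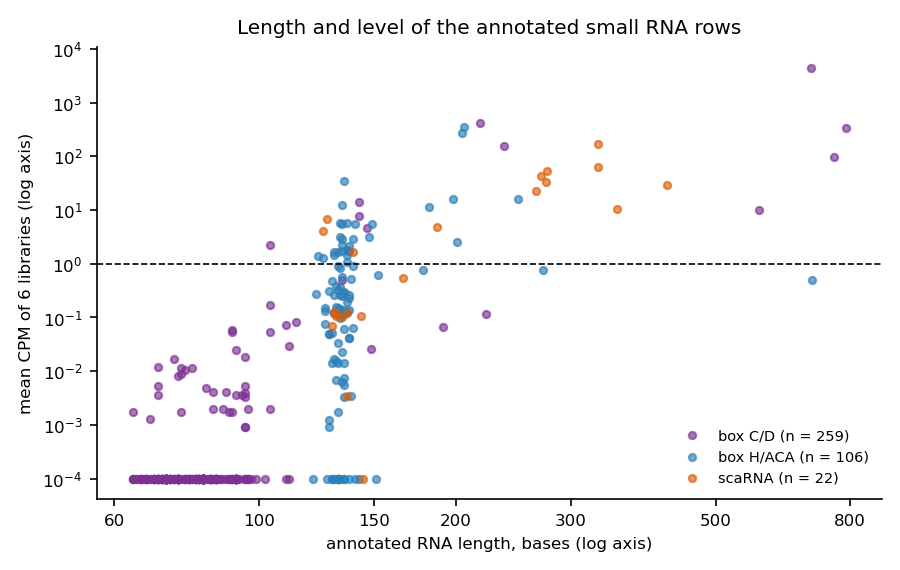
Annotated length in bases (log axis) against mean CPM of the 6 libraries (log axis) for each small RNA with 1 annotated place, coloured by class, with the 1 CPM limit dashed. The 235 RNAs of 100 bases or fewer all lie below the line, many of them at 0.0001 CPM.

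Short box C/D RNAs were near 0 also where their host was abundant. SNHG16, the most abundant host, holds SNORD1A, SNORD1B and SNORD1C, and each of the 3 was below 3 reads in all 6 libraries. GAS5 is known to hold 10 box C/D RNAs, of which 7 were listed, and SNHG1 is known to hold 8, all of them listed. These contents come from a list of known pairs, since the annotation places none of them in GAS5 and 3 in SNHG1. All 7 of GAS5 and all 8 of SNHG1 were below 3 reads in every library. ZFAS1 holds 3, with SNORD12B the highest at a mean of 0.0577 CPM. DANCR holds SNORA26, a box H/ACA RNA, at a mean of 0.275 CPM. So none of the small RNAs held by GAS5, SNHG1, ZFAS1 or DANCR was a member. The imprinted clusters, which carry many copies of SNORD115 and SNORD116 within SNHG14 and of SNORD113 and SNORD114 elsewhere, gave 117 small RNAs, of which 116 were below 3 reads in every library. SNHG14 itself was at 19.5 and 20.7 CPM in LN-229 and at 11.1 and 14.2 CPM in U251, and at most 0.0276 CPM in T98G.

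U3 made up most of the small RNA signal. The 5 U3 members lie on chromosome 17, and SNORD3A had the highest level per length of all members, at a mean of 6465 CPM per kb. SNORD3A was at 3647 CPM in siControl and 4380 CPM in siHOTAIRM1 cells of LN-229, at 5571 and 4792 CPM in T98G, and at 7115 and 1609 CPM in U251. The U251 siControl library was the highest of the 6 and the U251 siHOTAIRM1 library the lowest. The annotated transcripts of 4 copies are 581 to 791 bases long, beyond the 218 bases of SNORD3D, so their levels per length are on a longer transcript than the mature U3.

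The copies cannot be told apart with confidence. Over the 218 bases of SNORD3D, with positions counted from 1 at its 5′ end and its own base given first, SNORD3B-1 and SNORD3B-2 differ by G4A and T53C, SNORD3A by G4A, T53C and C78A, and SNORD3C by G4A, T53C, C78A and G108A. Of all stretches of 87 bases, the length of a read after trimming, 80.3% in SNORD3A, 59.8% in SNORD3D, 57.6% in SNORD3B-2, 51.3% in SNORD3B-1 and 82.4% in SNORD3C occur in another copy. Reads that fit several copies were divided by the authors' estimation step, and single-copy values are uncertain for that reason. The division differed between lines. SNORD3B-2 took 0.295% of the U3 sum in LN-229 siControl cells, 1.10% in T98G and 16.3% in U251. SNORD3B-1 took 0.0732%, 0.130% and 4.92%. Summed over the 5 copies, U3 was at 4079 and 4766 CPM in LN-229 (siControl and siHOTAIRM1), 6170 and 5314 CPM in T98G, and 9669 and 2309 CPM in U251. It was 72.0% to 84.4% of the summed small RNA members in 5 libraries and 66.6% in the siHOTAIRM1 library of U251.

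Next in level came a pair of box H/ACA RNAs of SNHG3 that, like U3, are known to act in the processing of ribosomal RNA. SNORA73A had a mean of 1689 CPM per kb and SNORA73B of 1326 CPM per kb, while their host SNHG3 had 38.6 CPM per kb. SNORA73A was at 412 and 387 CPM in LN-229, 238 and 240 CPM in T98G, and 477 and 333 CPM in U251. SNORA73B was at 323 and 315 CPM, 153 and 149 CPM, and 423 and 259 CPM. Both were lowest in T98G, as was SNHG3. The pair matched at 192 of 206 aligned positions (93.2%), yet no stretch of 87 bases is the same in both, so a whole read separates them. SNORD17, a long box C/D RNA, followed with a mean of 662 CPM per kb and was at 185 and 213 CPM in LN-229, 123 and 136 CPM in T98G, and 189 and 94.5 CPM in U251. Among scaRNAs, SCARNA10 led with 515 CPM per kb, followed by SCARNA7 and SCARNA5 with 190 CPM per kb each.

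Among hosts, SNHG16 had a mean of 356 CPM per kb, above SCARNA7 and SCARNA5 and below SCARNA10, GAS5 of 108, SNHG1 of 59.6 and SNHG5 of 21.96 CPM per kb. Lengths are those of the canonical annotated transcript, which can differ from the one made in these cells, and for ZFAS1 (7.72 CPM per kb) and SNHG8 (2.54 CPM per kb) that transcript is 4526 and 6166 bases long. The library kit does not mark the strand. Exons of a gene on the other strand overlap 9 of the 23 placed hosts, among them ZFAS1, DANCR, SNHG8 and SNHG12, and 3 of the 51 placed small RNAs, so reads of these partners cannot be told apart from theirs. An exon of some transcript on their own strand overlaps 26 small RNAs, these 3 included. The same holds for 10 of the 23 placed hosts, among them SNHG3, SNHG4 and SNHG20. For SNORA73A the overlapping exon belongs to another transcript of its own host SNHG3, and for SCARNA12 to one of its host PHB2. Reads of such host transcripts cannot be told apart from those of these small RNAs.

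**Figure D2:**
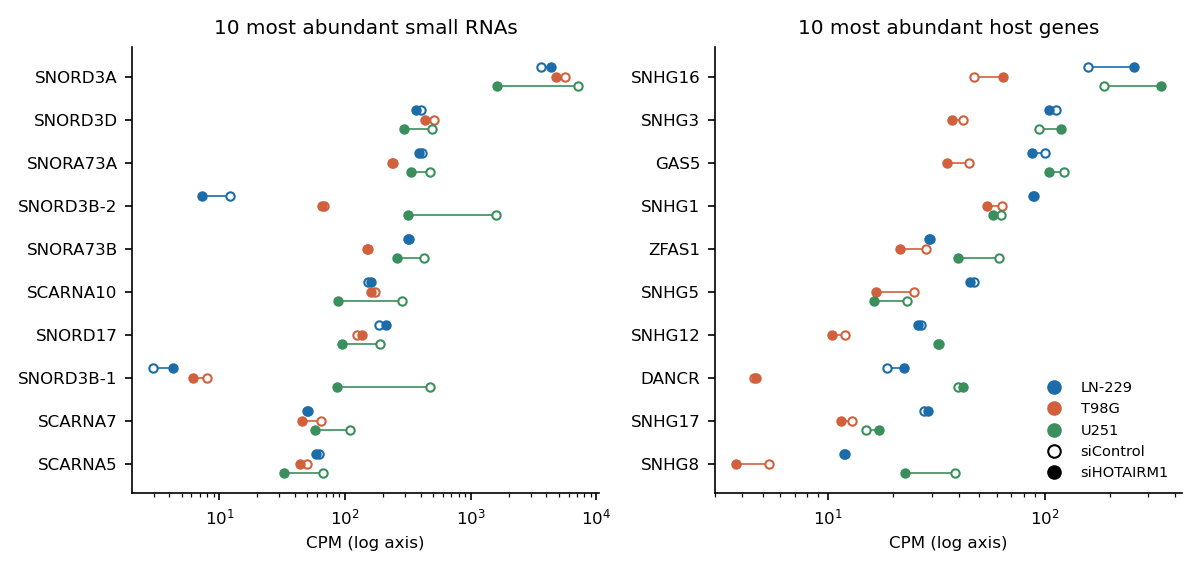
CPM (log axis) of the 10 most abundant small RNAs and the 10 most abundant hosts in the 6 libraries, with 1 colour per line, open circles for siControl, filled circles for siHOTAIRM1, and a line joining each pair. Among the small RNAs the U251 pairs are the longest, with SNORD3A at 7115 and 1609 CPM, while for SNHG16 the filled circle lies to the right in all 3 lines.

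Levels differed between the cell lines for most members, as for most genes. In the limma F-test of the line terms, 81.0% of the 14294 tested genes passed an adjusted p of 0.05. Of the members, 38 of 54 small RNAs (70.4%) and 22 of 23 tested hosts (95.7%) passed. The U3 sum did not (adjusted p = 0.714), nor did SCARNA10 (adjusted p = 0.927). DANCR, known as a lncRNA that restrains differentiation, was at 4.52 and 4.62 CPM in T98G but at 18.6 and 22.5 CPM in LN-229 and 39.6 and 42.0 CPM in U251. SNHG8 was at 5.31 and 3.75 CPM in T98G, 11.8 and 11.99 CPM in LN-229, and 38.5 and 22.6 CPM in U251. SNHG18 went the other way, with 5.18 and 5.00 CPM in T98G, 1.11 and 1.35 CPM in LN-229 and 0.0958 and 0.0495 CPM in U251. Summed over the 25 hosts, T98G was lowest, at 344 and 310 CPM, compared with 730 and 816 CPM in LN-229 and 784 and 894 CPM in U251.

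After HOTAIRM1 knock-down, 2 small RNAs and 1 of the listed hosts passed the test across all genes (limma, adjusted p below 0.05). SNHG16 was higher, and the U3 copies SNORD3B-2 and SNORD3C were lower. Over all tested genes, 0.413% were called higher and 1.59% lower, or 2.0% in either direction. The members' counts were 2 lower and 0 higher of 54 small RNAs, and 0 lower and 1 higher of 23 hosts, which is too few to read against that background.

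SNHG16, a host of box C/D RNAs that has been studied as a lncRNA in several cancers, went from 159 to 260 CPM in LN-229, from 47.4 to 64.1 CPM in T98G and from 188 to 344 CPM in U251. All 3 lines went up, and T98G was lower than the others in both conditions. The fitted log2 fold change was 0.67 (SE 0.16, adjusted p = 0.0202). It is a 1.59-fold rise on the scale of CPM + 1. The counting intervals of the log2 ratio were 0.68 to 0.74, 0.37 to 0.50 and 0.84 to 0.91 in LN-229, T98G and U251. The log2 fold change was 0.57 to 0.79 with each line left out in turn, but the call was lost each time (adjusted p = 0.0712 in limma without LN-229, 0.381 without T98G and 0.287 without U251). It was kept with each library centred on its median and lost when libraries were scaled to the summed CPM of protein-coding genes (log2 fold change 0.79, adjusted p = 0.0705 in limma). Over all alternatives the adjusted p ran from 0.00403 to 1.0.

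SNORD3B-2 was at 12.1 and 7.32 CPM in LN-229, 68.0 and 65.3 CPM in T98G, and 1577 and 318.7 CPM in U251. It was lower in 3 of 3 lines as deposited, least in T98G and most in U251, and the U251 libraries lay above those of the other lines in both conditions. The fitted log2 fold change was -1.004 (SE 0.22, adjusted p = 0.00984 in limma). SNORD3C was at 12.1 and 8.01 CPM in LN-229, 15.2 and 14.1 CPM in T98G, and 8.46 and 2.38 CPM in U251. It too was lower in 3 of 3 lines as deposited, in T98G within counting error (log2 ratio -0.11, interval -0.23 to 0.02). All tested genes had a median change of -0.19 in T98G, and compared with that neither SNORD3B-2 nor SNORD3C was lower there. The fitted value for SNORD3C was a log2 fold change of -0.71 (SE 0.17, adjusted p = 0.0243 in limma). Neither call was kept when any 1 line was left out, with each library centred on its median (adjusted p = 0.228 for SNORD3B-2 and 0.227 for SNORD3C in limma) or with scaling to protein-coding genes (0.271 and 0.268). With centring the log2 fold changes were -0.93 for SNORD3B-2 and -0.63 for SNORD3C, and with scaling -0.89 and -0.59. Without U251 the log2 fold changes were -0.35 for SNORD3B-2 and -0.32 for SNORD3C, with adjusted p = 0.694 and 0.763 in limma. Over all alternatives the adjusted p ran from 5.2e-07 to 1.0 for SNORD3B-2 and from 0.000435 to 1.0 for SNORD3C. With the 5 copies added into 1 value, a step chosen after the values were seen, U3 as a whole did not pass (log2 fold change -0.69, SE 0.37, adjusted p = 0.328 in limma) and was lower in 2 of 3 lines. How the division of reads between near-identical copies bears on the 2 calls was not tested.

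No other member passed. By an unadjusted p below 0.05 in limma, 23 of 54 small RNAs and 5 of 23 hosts stood out, compared with 2622 of all 14294 genes (18.3%). Without U251 it was 1 small RNA and 1 host, compared with 1083 genes, and with each library centred on its median 5 small RNAs and 2 hosts, compared with 2609 genes. The count of 23 includes SNORA80B, which reached the mean of 1 CPM through the library that also sets its difference. Of the small RNAs that were lower in 3 of 3 lines, SNORA53 and SCARNA13 had the largest mean differences after the U3 copies among those reported. SNORA53, a box H/ACA RNA in an intron of SLC25A3, was at 18.5 and 16.7 CPM in LN-229, 11.4 and 10.04 CPM in T98G, and 30.05 and 10.7 CPM in U251. SCARNA13, which guides changes of spliceosomal RNA and lies in an intron of SNHG10, was at 43.8 and 40.5 CPM, 24.6 and 18.9 CPM, and 48.6 and 21.6 CPM. In both the U251 pair was the widest, and those of LN-229 and T98G were narrower. Their adjusted p was 0.0708 and 0.0636 in limma. SNORA80B, in an intron of ODC1 and named after its values were seen, had an adjusted p of 0.0511 in limma. It was at 2.70 CPM in the siControl library of U251 and at 0.481 to 1.06 CPM in the other 5, so it reached the mean of 1 CPM through the library that also sets its difference, and nothing is read from that p.

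In the other direction, SNORA42 alone among the small RNAs had a higher value in 3 of 3 lines, 1.35 and 1.58 CPM in LN-229, 1.91 and 1.93 CPM in T98G, and 0.440 and 0.524 CPM in U251. None of these differences was beyond counting error, with intervals of the log2 ratio of -0.11 to 0.57, -0.33 to 0.35 and -0.45 to 0.95 (adjusted p = 0.781 in limma). Among hosts, SNHG16 and DANCR had higher values in 3 of 3 lines, DANCR within counting error in T98G. SNHG14 had a higher value in LN-229, within counting error, and in U251, and in T98G both its libraries were below 3 reads. DANCR and SNHG14 did not pass the test (adjusted p = 0.680 and 0.611 in limma). GAS5, a growth-arrest lncRNA, was at 100.6 and 87.8 CPM in LN-229, 44.8 and 35.4 CPM in T98G, and 122 and 105 CPM in U251, lower in 3 of 3 lines without passing the test (adjusted p = 0.369 in limma). SNHG1 was lower in T98G and U251 and within counting error in LN-229, where it was at 89.6 and 88.2 CPM. ZFAS1 was lower in T98G and U251 and level in LN-229, where it was at 29.2 and 29.4 CPM.

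The change was next read line by line, as the difference of log2(CPM + 1) between siHOTAIRM1 and siControl. As deposited, LN-229 had a median of 0.01 over all tested genes, T98G of -0.19 and U251 of -0.03. With each library centred on its median the value for T98G was 0.01, so the next 2 sets of medians are given relative to all genes, and other values for T98G are as deposited. On that scale, the 54 small RNAs had a median of -0.01 (LN-229), 0.10 (T98G) and -0.63 (U251). The 25 hosts had medians of 0.04, 0.03 and -0.03 in the same order. As deposited, the small RNA median in T98G was -0.09, and its sign turns with centring (0.10). The low median of the small RNAs was thus seen in 1 line, U251. There it was -0.66 as deposited, -0.58 with centring and -0.57 with scaling to protein-coding genes. In bulk RNA, fewer cells that make an RNA and less of it per cell cannot be told apart.

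All 3 classes were lower in U251. As deposited, the median difference there was -0.99 for box C/D RNAs, -0.55 for box H/ACA RNAs and -0.93 for scaRNAs, and without the U3 copies the median of the remaining 49 small RNAs was -0.60. In U251, 46 of 54 small RNAs (85.2%) were lower, compared with 14 of 25 hosts (56.0%) and 53.2% of all tested genes. A difference below -1 was found in U251 for 16 small RNAs (5 box C/D, 6 box H/ACA and 5 scaRNAs) and for 0 hosts, whereas 1.59% of all tested genes lay below -1 and 0.483% above 1. Without the U3 copies it was 12 of 49. Both counts include SNORA80B, which reached the mean of 1 CPM only through the siControl library of U251. No member passed either limit in LN-229, where 0.105% of all genes lay below -1 and 0.126% above 1, or in T98G, where the shares were 0.385% and 0.0840%. Lower in 3 of 3 lines were 20 of 54 small RNAs (37.0%), SNORA80B among them, and 4 of 25 hosts (16.0%), beside 28.1% of all genes. Higher in value in 3 of 3 lines were 1 small RNA and 3 hosts, beside 11.4% of all genes, and these counts include SNORA42 and, with T98G below 3 reads, SNHG14.

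**Figure D3:**
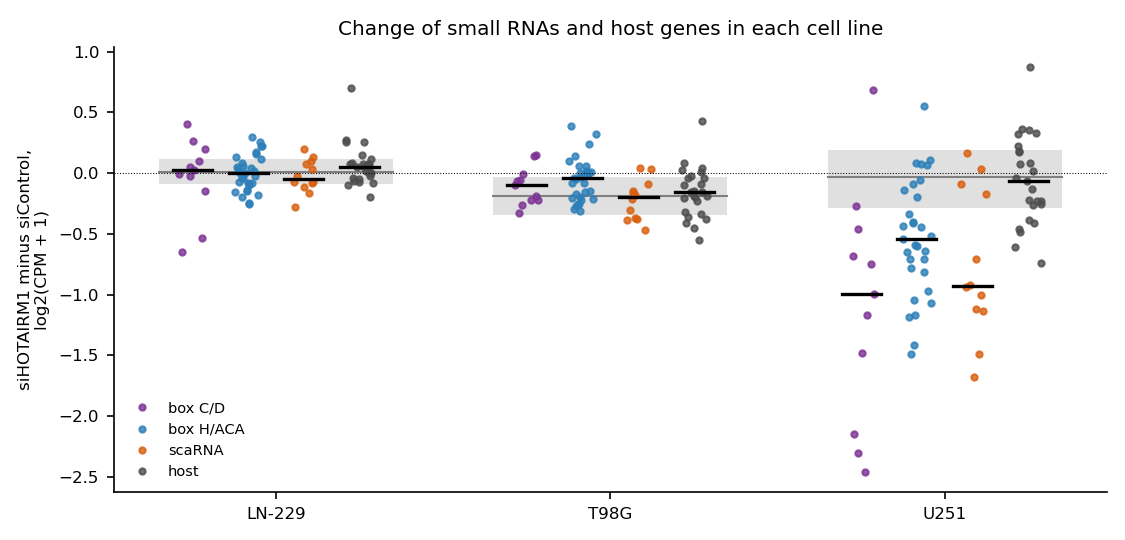
Difference of log2(CPM + 1) between siHOTAIRM1 and siControl for each member and line, by class, with 1 point per gene. The points of the small RNA classes reach down to -2.46 in U251, while those of the hosts stay between -0.74 and 0.87 there.

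Not every small RNA was lower in U251. SNORD13, a box C/D RNA with a promoter of its own that is needed for acetylation of ribosomal RNA, was at 1.42 CPM in siControl and 2.88 CPM in siHOTAIRM1 cells of U251, and at 1.98 and 1.97 CPM in LN-229 and 2.58 and 2.57 CPM in T98G. SNORA31, in an intron of TPT1, was at 1.75 and 3.03 CPM in U251, at 0.251 and 0.492 CPM in LN-229 and at 2.28 and 2.27 CPM in T98G. Both are named after their values were seen. They were near level in T98G and higher in U251, and neither passed the test (adjusted p = 0.395 and 0.255 in limma).

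The sums show the same split. U3 copies together had log2 ratios of 0.22, -0.22 and -2.07 (LN-229, T98G, U251). The other small RNAs together were at 1583 and 1589 CPM in LN-229, 1141 and 1079 CPM in T98G, and 2070 and 1158 CPM in U251, with log2 ratios of 0.00, -0.08 and -0.84. The hosts together had log2 ratios of 0.16, -0.15 and 0.19. The higher host sum in LN-229 and U251 came from SNHG16. Without it, a step chosen after the values were seen, the hosts together were at 570.8 and 555.9 CPM in LN-229, 296.8 and 245.8 CPM in T98G, and 596 and 549.8 CPM in U251, with log2 ratios of -0.04, -0.27 and -0.12. Without U251, the median difference of the small RNAs over the remaining lines was -0.05, and that of the hosts -0.06.

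Small RNAs were then set beside the gene that holds them. Of the 54, 43 lie in an intron of an annotated gene on the same strand, with 1 candidate gene for 38 and 2 for 5, SNORA73A, SNORA73B, SNORA74A, SNORA48 and SNORD10, for each of which the gene with the shorter span was taken. This gave 43 pairs with 37 hosts, 12 of them in 8 SNHG hosts and 31 in 29 other genes, which encode proteins. The remaining 11, the U3 copies among them, had no host at a single annotated place. The median of small RNA minus host was -0.02 for LN-229, 0.09 for T98G and -0.51 for U251. The small RNA was below its host in 23, 13 and 40 of the 43 pairs, and in U251 in 12 of 12 pairs with an SNHG host. Without U251 the median of small RNA minus host over the pairs was 0.04. Of the 37 hosts, 1 passed the test, beside 2.0% of all tested genes, and this is too few to read against that share. It was ATP2B4, a calcium pump gene that holds SNORA77, both named after their values were seen. ATP2B4 was at 92.9 and 68.0 CPM in LN-229, 100.5 and 67.2 CPM in T98G, and 108 and 65.6 CPM in U251, lower in 3 of 3 lines (log2 fold change -0.58, SE 0.15, adjusted p = 0.0328 in limma). In this pair the small RNA was above its host in each line, by 0.36, 0.55 and 0.07. The call of ATP2B4 was lost without LN-229 (adjusted p = 0.0611 in limma), without T98G (0.542), without U251 (0.377), with centring (0.107) and with scaling (0.156), and the adjusted p ran from 0.00998 to 1.0 over all alternatives. The log2 fold changes in the fits named here were -0.64, -0.58, -0.51, -0.50 and -0.46 in the same order.

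Single pairs went both ways, and those named here were picked after their values were seen. SCARNA10, in an intron of the condensin gene NCAPD2, was at 153 and 161 CPM in LN-229, 173 and 162 CPM in T98G, and 282.9 and 87.9 CPM in U251. The U251 difference was -1.68 for SCARNA10 and 0.56 for NCAPD2. For SCARNA13 it was -1.14, and for its host SNHG10 it was 0.18. SNORA74A, a box H/ACA RNA, had a difference of -1.04 in U251, and its host SNHG4 one of 0.36. For SNORA73A and SNORA73B the values were -0.52 and -0.70, and for SNHG3 0.33. In LN-229 the same small RNAs differed by -0.11 to 0.07, and in T98G by -0.37 to 0.01. The lowest in T98G was SCARNA13, and its host SNHG10 differed there by -0.19. In the opposite direction, SNORA31 had a difference of 0.55 in U251 and its host TPT1 one of -0.72.

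Over the 43 pairs, the change of a small RNA and that of its host had a Pearson r of 0.35 for LN-229, 0.06 for T98G and 0.12 for U251, and a Spearman rho of 0.39, 0.04 and 0.20. These describe pairs that share their libraries, their depth and in part their host, and pairs are not independent replicates. The mean level of the small RNA and that of its host had a Pearson r of 0.16 and a Spearman rho of 0.14 over the same pairs. None of the hosts in these pairs had a difference below -1 in U251, and 11 of the small RNAs did, SNORA80B among them. Over all tested genes 1.59% lay below -1 there, so with 37 hosts their absence is not read as a result.

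**Figure D4:**
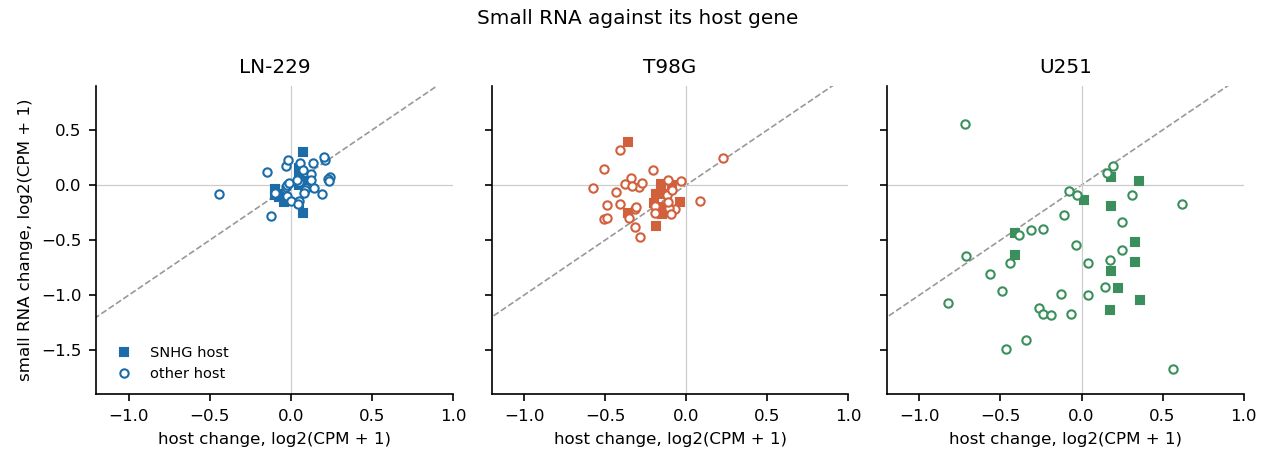
Change of each small RNA (vertical axis) against that of its host gene (horizontal axis) in the 3 lines, both as differences of log2(CPM + 1), with 1 point per pair. In U251, 40 of the 43 points lie below the line of equal change, compared with 23 in LN-229 and 13 in T98G.

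The proteins that form and mature these RNPs (RNA-protein complexes) did not pass the test. Of the core box C/D proteins, 0 of 4 were called in limma and 0 had an unadjusted p below 0.05. FBL was at 21.6 and 25.5 CPM in LN-229, 27.05 and 22.04 CPM in T98G, and 34.9 and 40.5 CPM in U251, and NOP56, NOP58 and NHP2L1 are its partners in the particle. Of the core box H/ACA proteins, 0 of 4 were called and 1 had an unadjusted p below 0.05. That was NHP2, at 29.2 and 27.5 CPM, 24.96 and 16.7 CPM, and 76.0 and 44.3 CPM (log2 fold change -0.47, adjusted p = 0.0833 in limma), while the pseudouridine synthase DKC1, GAR1 and NOP10 had adjusted p values of 0.607, 0.981 and 0.289. Of 14 assembly and maturation factors, 0 were called and 3 had an unadjusted p below 0.05, beside 2.0% and 18.3% of all tested genes, with NOLC1 the most abundant. Of 3 Cajal body genes, 0 were called and 0 stood out unadjusted, with SMN1 the most abundant. Of 10 factors of nonsense-mediated decay, which degrades several spliced host RNAs, 0 were called and 0 stood out unadjusted, with SMG1 the most abundant at a mean of 130.2 CPM.

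Other RNAs known to lack a poly-A tail moved with the small RNAs in U251. The list held 29 genes, among them RN7SL1, RN7SK, spliceosomal RNAs and histone genes. Summed, it was at 48508 and 55905 CPM in LN-229, 44921 and 34818 CPM in T98G, and 123690 and 66532 CPM in U251. RN7SL1, RN7SL2 and RN7SK made up most of this sum in every library, so it says little about the rest of the list. In U251, 26 of 29 were lower and 6 had a difference below -1, in T98G 21 were lower and 0 passed -1, and in LN-229 14 were lower and 0 passed -1. Over all tested genes, 53.2%, 79.3% and 46.3% were lower in U251, T98G and LN-229, and 1.59%, 0.385% and 0.105% lay below -1. The counts of the list take in TERC, RNU6-1, RNU4ATAC, VTRNA1-1 and RNY3, whose means were below 1 CPM. RNU6-1 was below 3 reads in both U251 libraries, so its direction there cannot be read. RN7SL1, the RNA of the signal recognition particle and the most abundant of the list, was at 18564 and 21047 CPM, 16118 and 11862 CPM, and 60589 and 27894 CPM. RN7SL2, a gene for the same RNA, was at 17030 and 19621 CPM, 15639 and 11740 CPM, and 36870 and 26585 CPM. The U251 difference was -1.12 for RN7SL1 and -0.47 for RN7SL2, and how reads were divided between them was not tested. RN7SK, which holds back a transcription elongation factor and is named after its values were seen, was at 10649 and 12914 CPM in LN-229, 10438 and 8922 CPM in T98G, and 22596 and 9860 CPM in U251. Of 24 tested genes, 1 was called lower in limma, beside 1.59% of all tested genes, the replication-dependent histone gene HIST1H4C (log2 fold change -0.61, adjusted p = 0.0484). The call was kept without LN-229 (adjusted p = 0.0353 in limma) but not without T98G (0.581), without U251 (log2 fold change -0.32, adjusted p = 0.810), with centring (0.204) or with scaling (0.239), and the adjusted p ran from 0.00801 to 1.0 over all alternatives. By an unadjusted p below 0.05 in limma, 10 of the 24 stood out, beside 18.3% of all tested genes. It was at 84.9 and 80.0 CPM in LN-229, 84.9 and 57.8 CPM in T98G, and 244.5 and 106 CPM in U251. RNA quality is not given for these libraries. The siControl library of U251 was the shallowest and held the highest sums of U3, of the other small RNAs and of this list, and the part of that library in the results was not tested.

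**Figure D5:**
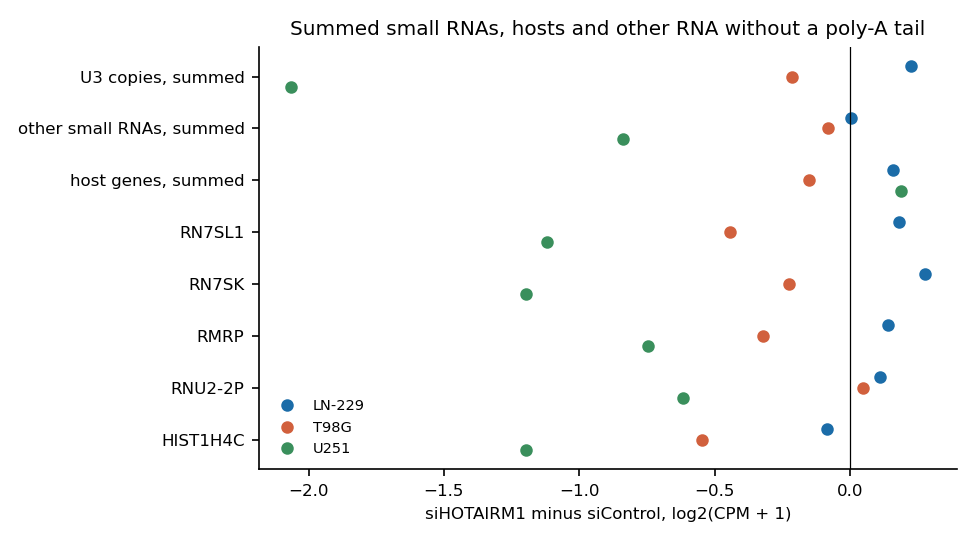
Difference of log2(CPM + 1) between siHOTAIRM1 and siControl in the 3 lines (colours) for the summed U3 copies, the other small RNAs and the host genes, and for 5 RNAs known to lack a poly-A tail. The U251 point is at -2.07 for U3 and at 0.19 for the hosts, SNHG16 included, and RN7SL1, RN7SK and HIST1H4C lie below -1 in U251. RN7SL2, which is not drawn, had a difference of -0.47 there.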

How the data were processed

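RNA from 6 cultures was sequenced from polyadenylated libraries (TruSeq RNA v2, not strand-marking). The authors trimmed 13 bases at the 5′ and 1 at the 3′ end, aligned to hg38 with STAR 2.4.1d, then Bowtie 2, and divided reads over Ensembl 84 transcripts by expectation maximization in Partek Flow. The deposited values are CPM with 0.0001 added. Their column names call the LN-229 line LNT229, and both names were taken as the same line. Depth was read by taking the most frequent low value of a library as 1 read, with 76.4% to 80.6% of values up to 1000 reads whole within 0.02 reads.

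Values were fitted as log2(CPM + 1) with limma 3.58.1 in R 4.3.3 (trend, cell line as block, genes averaging 1 CPM or more, Benjamini-Hochberg adjustment at 0.05). The line effect was the moderated F-test of the same fit. The fit was tested on simulated data. The pairing was checked: deviations from the mean of each condition correlated at 0.948 to 0.967 within a line and at -0.505 to -0.467 between lines. Positions, lengths and hosts came from GENCODE 44 (contents of GAS5 and SNHG1 from a list written by hand), tables from Python 3.11.15 with pandas 2.3.3.

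Genes named are HOTAIRM1, members past the threshold, the 10 most abundant small RNAs and hosts, the 5 largest same-direction rises and falls (1 is not reported here), GAS5, ZFAS1, DANCR, SNHG1, the 8 core proteins, and of the other lists (assembly, Cajal body, decay, other RNA without a poly-A tail, markers) called genes and the most abundant one. Members and lists were chosen with earlier results of these data known. Alternatives were no block, a pseudocount of 0.1, no filter, centring, a paired test of each gene, leaving out each line, a member minimum of 5 CPM, scaling to protein-coding genes and summed U3 copies.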

Additional observations from a re-analysis of the deposited data

Results flagged for a closer look

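For each item here, the log2 ratio of siHOTAIRM1 to siControl lay on opposite sides of 0 in a pair of cell lines, beyond the counting intervals of both libraries. With 1 library per line and condition, none of these differences between lines was tested.

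The summed U3 copies had a log2 ratio of 0.22 (0.22 to 0.23) in LN-229 but -2.07 (-2.07 to -2.06) in U251, which are 2.29 apart. SNORD3A, the main copy, had 0.26 in LN-229 but -2.14 in U251, which are 2.41 apart. SNORD3B-1 had 0.52 and -2.48, a difference of 2.997, with its low level in LN-229 giving an interval of 0.30 to 0.74. SNORD3A and SNORD3B-1 are part of the U3 sum, so they are not results apart from it. Their reads were divided between copies by estimation, and counting intervals leave that uncertainty out. SCARNA10 had 0.07 in LN-229 but -1.69 in U251, which are 1.76 apart, and SNORD17 had 0.20 and -1.001, a difference of 1.20.

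The sum of the hosts had a log2 ratio of 0.19 in U251 and -0.15 in T98G, a difference of 0.34. This split rests on SNHG16. Without it the log2 ratios of the sum were -0.12 in U251 and -0.27 in T98G. For SNHG3 the values were 0.33 and -0.16, a difference of 0.49, and for SNHG17 0.19 and -0.16, a difference of 0.36. The median over all genes was lower by 0.19 in T98G as deposited, which is of the size of these negative values.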

How the results depend on the processing

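Of 378 comparisons of a named gene under an alternative (42 genes), 317 kept their direction and their side of the threshold, 37 kept the direction and lost the call, 8 gained a call and 16 changed direction. Most of the 317 are of uncalled genes that stayed uncalled. Of the 42 genes, only HOTAIRM1, SNHG16, SNORD3B-2, SNORD3C and HIST1H4C were called in limma, so the 37 lost calls are all theirs. With a pseudocount of 0.1, 0 of these calls were lost. In each other alternative compared, 4 or 5 were lost, so most comparisons of a called gene lost the call.

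The 286 genes called in limma became 683 with a pseudocount of 0.1, 41 with each library centred on its median, and 0 with no filter (2153 at an unadjusted p below 0.05), with a paired test of each gene alone (896) or with scaling to protein-coding genes (2589), and 0 to 270 with 1 line left out. The 2 called small RNAs became 11 with a pseudocount of 0.1, 1 with the U3 copies summed (SNORA80B, not one of the 2, which reached the filter through its level in the U251 siControl library), 0 with no filter (3 unadjusted), centring (5), the paired test (2) or scaling (6), and 0 to 3 with 1 line left out. The 11 include both, and the 3, called without LN-229, are SCARNA12, SCARNA2 and SNORD3B-1, neither of the 2. The 1 called host, SNHG16, became 0 with no filter (2 unadjusted), the paired test (2) or scaling (3), and 0 to 0 with 1 line left out. The cause was not tested.

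Without the block for cell line, where the pairing is dropped, 0 genes (29 unadjusted), 0 small RNAs and 0 hosts were called. The 11574 genes that differ between lines became 5836 with no filter, where more genes were tested, and stayed within 1.5 times that count otherwise.

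The median change of the small RNAs was -0.25, -0.17 with centring, -0.16 with scaling, and -0.38 to -0.05 with 1 line left out. That of the hosts was -0.06, -0.09 with a pseudocount of 0.1, 0.02 with centring or scaling, and -0.11 to -0.0075 with 1 line left out. The median of small RNA minus host was -0.14, and -0.26 to 0.04 with 1 line left out.

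Directions that changed were all of uncalled genes. With centring, the log2 fold change became 0.00804 for SNHG12 and 0.00164 for NOLC1, and with scaling 0.0409 and 0.0407. With 1 line left out the log2 fold change ran from -1.18 to 0.0234 for SNORD3A, -0.426 to 0.172 for SNORD17, -1.39 to 0.0412 for SNORD3B-1, -0.127 to 0.116 for SNHG3, -0.0512 to 0.115 for SNHG17, -0.0381 to 0.219 for FBL, -0.0851 to 0.121 for NOP56, -0.275 to 0.0160 for DKC1, -0.0392 to 0.0756 for GAR1 and -0.200 to 0.0816 for NOLC1. The cause was not tested.

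Scaling, the summed U3 copies, the median without the U3 copies and the alternatives for the line effect and the pairs were chosen after seeing the data. Depth limits small RNAs below 3 reads, whose changes cannot be read.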

Other observations

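SNHG18 was at 5.18 and 5.00 CPM in T98G and at 0.0958 and 0.0495 CPM in U251, whereas the hosts together were lowest in T98G. SNHG23 and SNHG24, which could not be placed in the annotation, were at the added 0.0001 CPM in both LN-229 libraries.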
